A study of Mus musculus with 4 samples.

Results

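The proteasome genes described here are the 50 of 25587 genes with RNA-Seq values whose symbol consists of the stem Psm, a letter from a to g and a number, with or without a suffix. The rule takes in subunits of the proteolytic core and of its regulatory particle, activators, an inhibitor and assembly chaperones. It also takes in Psmc3ip, which shares the name stem only, and Psme2b-ps, a processed copy of Psme2. Subunits with symbols of another form, such as Adrm1 and Shfm1, fall outside it and are listed with the associated factors. RNA came from pooled oocytes of wild-type C57BL/6Babr mice at stages of follicular growth, was depleted of ribosomal RNA and was sequenced as 1 library per stage. The NGOs (non-growing oocytes) were 10 to 40 µm in size and from mice at 5 dpp (days post-partum), and the FGOs (fully grown oocytes) measured more than 70 µm and were from mice at 20 dpp. The growing oocytes of GO1 were 25 to 70 µm in size and from mice aged 8 to 14 dpp, and those of GO2 were 50 to 70 µm in size and from mice aged 15 dpp. NGO and FGO libraries were made with a dUTP protocol and GO1 and GO2 libraries with the ScriptSeq v2 kit, so that stage and protocol cannot be told apart between these pairs. Changes are therefore given within a protocol only, comparing FGOs with NGOs and GO2 with GO1, and differences between protocols are not read as changes between stages. With 1 library per stage, no value has a replicate check.

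The proteasome is the barrel-shaped protease that degrades proteins tagged with ubiquitin. Rings of alpha subunits gate the barrel of the 20S core, rings of beta subunits carry the active sites inside it, and the 19S regulatory particle binds, unfolds and feeds in the substrates, the whole being called the 26S proteasome. In cells of the immune system, and in other cells after interferon signalling, the catalytic beta subunits are replaced by immunoproteasome subunits and the core can be capped by the PA28 activator, whereas oocytes depend on the proteasome for the destruction of cyclin B and other regulators during meiotic divisions.

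Values are RPKM (reads scaled to exon length and to the library total), from which read numbers were recovered. Where 4 values follow each other, they stand for NGOs, GO1, GO2 and FGOs in this order. The reads on listed genes added up to 64127845, 75691551, 140769284 and 72982785. Ranges in parentheses are 95 % intervals that cover counting error only and take each recovered read as independent. Among genes of known length with 2 to 21 reads, the number was odd for 62.0 %, 47.9 %, 47.5 % and 63.1 %, an excess in NGOs and FGOs that independent reads would not give. The way a read pair was counted is not given in the sources used here, so that intervals may be too narrow and a floor of 3 reads may stand for fewer fragments. With the reads halved, an alternative chosen after seeing the data, the same 6 genes were lower by at least 2-fold in FGOs and the same 1 in GO2 (both described below). A gene was called detected with at least 3 reads. All 10 oocyte markers examined were detected in each library, with a summed RPKM of 6479.0, 4360.6, 4291.3 and 4595.5, and the zona pellucida gene Zp2 was the highest of them throughout. Lists for other cells were read at far lower levels. In NGOs 5 of 6 genes of the list for stroma and fibroblasts were detected, with a summed RPKM of 5.51 and the collagen gene Col1a1 highest at 2.24. In GO1, GO2 and FGOs 5 of 6 were also detected, but at a summed RPKM of 0.158, 0.238 and 0.245, with Pdgfra highest and Lum listed at 0. The granulosa list had a summed RPKM of 2.85, 2.47, 5.04 and 10.4, with 9, 8, 9 and 9 of 9 genes detected. Its highest gene was Inha in NGOs, at 0.638, and Cyp19a1 in GO1, GO2 and FGOs, at 1.08, 3.13 and 6.08. The granulosa genes were mixed. In FGOs Cyp19a1 (0.518 in NGOs), Amh, Kitl, Inha and Fshr were higher than in NGOs, Foxl2, Fst and Amhr2 were lower, and Inhba was nearly the same. The immune list summed to 3.62, 1.96, 3.73 and 7.82 with C1qb highest, 6, 4, 6 and 6 of 7 genes detected and Lyz2 at 0 in GO1 and FGOs, and the pan-leukocyte gene Ptprc had 12, 2, 5 and 11 reads. The endothelial list summed to 3.37, 7.22, 11.1 and 12.4 with Pecam1 highest, 4, 3, 3 and 3 of 4 genes detected and Cdh5 at 0 in GO2 and FGOs. Of the erythroid genes, Hba-a1 had an RPKM of 0.902 in NGOs, was at 0 in GO1 and FGOs and had 1 read in GO2, Alas2 had 5, 7, 10 and 0 reads, and the list summed to 0.921, 0.023, 0.0223 and 0. In such bulk RNA, fewer cells of a type and less RNA per cell cannot be told apart.

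The genes of the constitutive 26S proteasome that the name rule takes in were highly expressed at every stage. All 31 of them (14 of the core, 17 of the regulatory particle) had an RPKM of at least 1 and lay above the median of the detected genes in each library. Their median RPKM was 38.8, 21.6, 22.9 and 30.1. This placed the median subunit at a percentile (the share of detected genes with a lower RPKM) of 95.2, 90.5, 91.8 and 93.3, respectively. Together the 31 genes took 0.618 % of the summed RPKM of NGOs, 0.484 % of GO1, 0.499 % of GO2 and 0.523 % of FGOs. Of the 50 genes, 50, 49, 49 and 48 were detected, beside 16555, 16895, 18094 and 16711 of the 25587 listed genes, and the genes below the limit were the immunoproteasome genes Psmb8 and Psmb9.

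**Figure D1:**
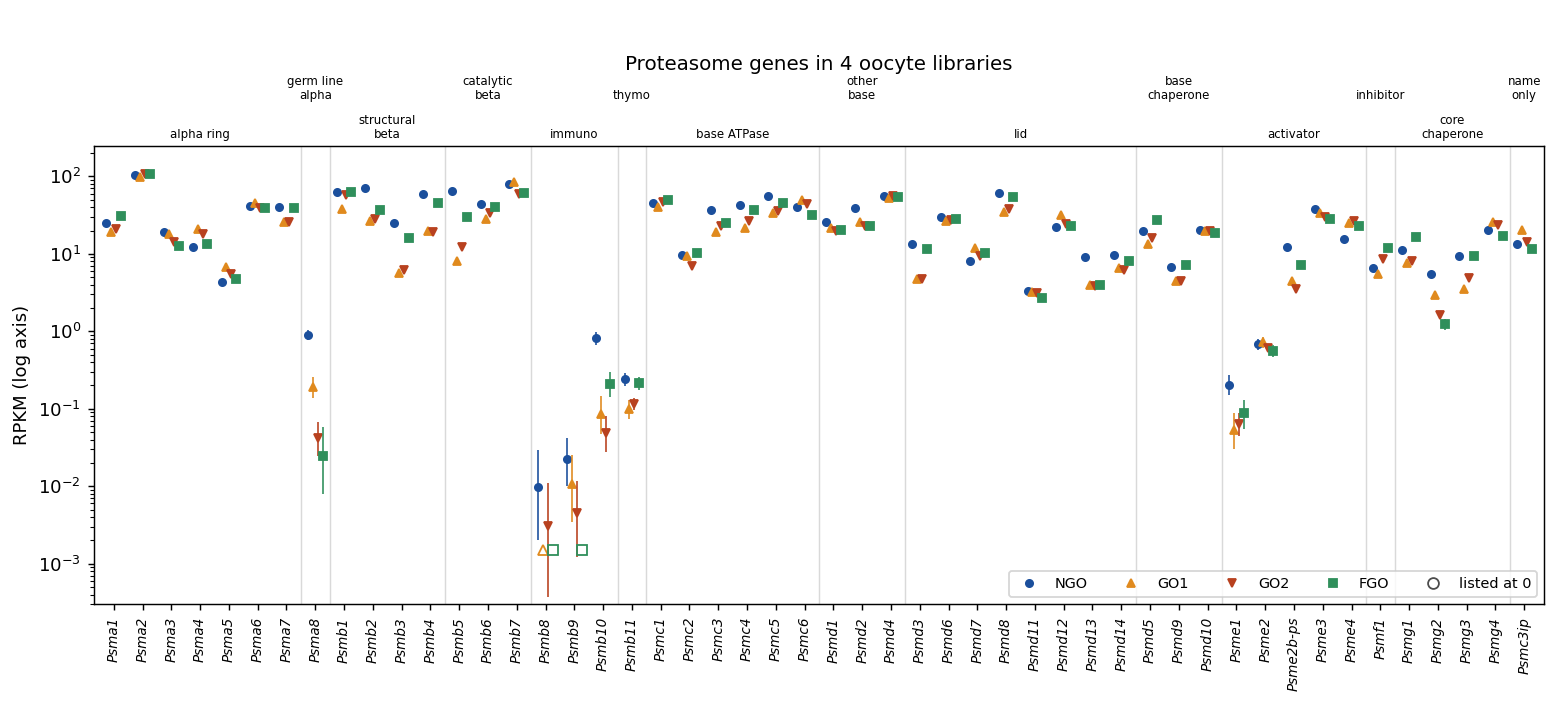
RPKM of the 50 proteasome genes on a log axis, grouped by role, with 1 symbol per library and 95 % Poisson intervals as vertical lines. Open symbols near the bottom stand for genes listed at 0 and have no place on the axis. Constitutive subunits lie between 2.73 and 108, and the immunoproteasome genes Psmb8, Psmb9 and Psmb10 at 0.812 or less.

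Few of these genes differed by 2-fold between stages. From NGOs to FGOs, 48 of the 50 had at least 20 reads in the pair and could be compared, and 6 of them (Psma8, Psmb5, Psmb10, Psmd13, Psme1 and Psmg2) were lower in FGOs by at least 2-fold. None was higher by as much. Among all 15249 genes with enough reads, 34.4 % differed by at least 2-fold, 17.7 % upwards and 16.8 % downwards. Over the 48 genes the median log2 ratio (FGOs over NGOs, with library scaling by trimmed means) was -0.15, against -0.01 for all genes, and 35 of them stayed within 1.5-fold, against 45.8 % of all genes. From GO1 to GO2, 1 of 48 (Psma8) was lower by at least 2-fold and none was higher, beside 9.72 % of 15727 genes, 6.88 % upwards and 2.84 % downwards. The median log2 ratio was -0.05 against 0.02 for all genes. Its sign depends on the scaling, since it was 0.03 when the libraries were set to equal sums of RPKM. Within 1.5-fold were 44 of the 48, and 76.3 % of all genes.

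**Figure D2:**
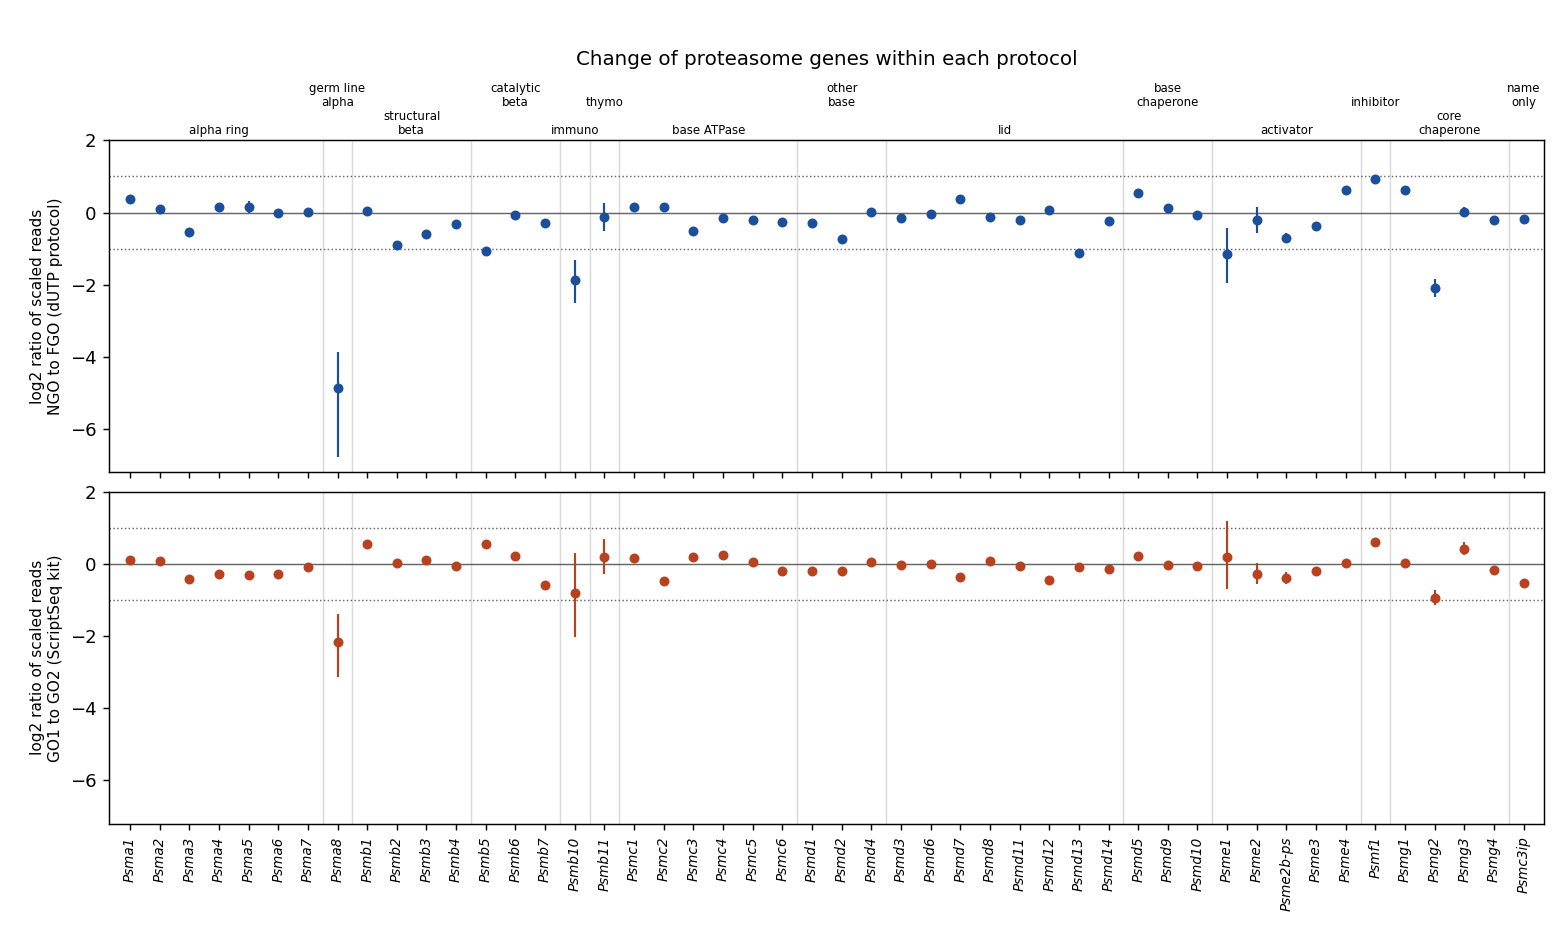
Log2 ratio of scaled reads from NGOs to FGOs (upper panel) and from GO1 to GO2 (lower panel) for the 48 proteasome genes with at least 20 reads in each pair. Vertical lines are 95 % intervals for counting error and dotted lines mark 2-fold. In the upper panel 6 genes lie at or below the lower dotted line, and in the lower panel 1.

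The alpha ring is built from Psma1 to Psma7, whose products gate the entrance of the core. Their median RPKM was 24.9, 21.2, 21.2 and 31.2. No alpha gene differed by 2-fold in either pair. The log2 ratio from NGOs to FGOs ran from -0.54 for Psma3 to 0.38 for Psma1, and that from GO1 to GO2 from -0.40 for Psma3 to 0.12 for Psma1. Psma2 (chromosome 13 from 14613242 to 14625671 of GRCm38) had the highest level of all 50 genes, with an RPKM of 106, 98.4, 106 and 108. Its RPKM varied by no more than 1.10-fold over the 4 libraries, which across protocols does not show equal levels. Psma6 ranged from 38.6 in GO2 to 45.7 in GO1, Psma7 from 25.5 in GO2 to 40.7 in NGOs and Psma4 from 12.3 in NGOs to 21.2 in GO1.

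Psma5 was the lowest of the alpha genes. Its RPKM was 4.37, 6.69, 5.56 and 4.68. The highest alpha gene exceeded Psma5 by 24.1-fold, 14.7-fold, 19.1-fold and 23.1-fold. A processed copy of Psma5, listed as Gm8394 on chromosome 10 (85313488 to 85314439), was counted at a much higher level, with an RPKM of 49.8, 29.6, 30.4 and 50.4. It was singled out after its values were seen. Of the stretches of 100 bases (the read length) in the copy, 20.0 % occur without mismatch in Psma5 transcripts, and each read was allowed only 1 place in the genome, so reads of the gene and of its copy cannot be told apart there. Of the reads on either locus, 89.1 %, 76.1 %, 79.8 % and 88.6 % were listed at the copy. For the reads of both loci together the log2 ratio was 0.08 in the dUTP pair and -0.06 in the ScriptSeq pair. With Psma5 left out, a choice made after the values were seen, the spread of the alpha ring was 8.55-fold, 5.43-fold, 7.57-fold and 8.53-fold.

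Psma8 encodes an alpha subunit of the germ line that takes the place of Psma7 in spermatocytes. It had an RPKM of 0.897 (0.767 to 1.04), 0.191 (0.137 to 0.259), 0.0416 (0.0242 to 0.0666) and 0.0247 (0.00802 to 0.0576), from 168, 41, 17 and 5 reads. The value was thus lower in FGOs than in NGOs and lower in GO2 than in GO1, and no order is read across protocols. The log2 ratio was -4.87 (-6.77 to -3.88) from NGOs to FGOs and -2.15 (-3.14 to -1.38) from GO1 to GO2, and Psma8 was the only one of the 48 genes compared that fell by more than 2-fold within both protocols. Psma7 exceeded Psma8 by 45.3-fold in NGOs and 1598.9-fold in FGOs on the RPKM scale.

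Several beta ring genes had lower values in both ScriptSeq libraries than in both dUTP libraries. Of the 4 structural subunits, which have no active site, Psmb1 had an RPKM of 62.2, 38.3, 57.7 and 62.1. Psmb2 had 71.5, 26.7, 27.9 and 37.2, Psmb3 had 25.4, 5.603, 6.21 and 16.3, and Psmb4 had 59.3, 19.5, 19.4 and 45.7, in the same order. None of these 4 genes passed 2-fold in either pair, the log2 ratio from NGOs to FGOs being -0.89 for Psmb2, -0.59 for Psmb3, -0.32 for Psmb4 and 0.05 for Psmb1.

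Of the catalytic subunits, Psmb6 carries the caspase-like, Psmb7 the trypsin-like and Psmb5 the chymotrypsin-like activity. Psmb6 had an RPKM of 44.0 (43.1 to 45.0), 28.1 (27.4 to 28.8), 33.7 (33.2 to 34.3) and 40.4 (39.5 to 41.2). Psmb7 had 79.3 (77.8 to 80.8), 85.9 (84.4 to 87.4), 59.2 (58.4 to 60.1) and 61.9 (60.6 to 63.2). Neither differed by 2-fold, with log2 ratios of -0.07 and -0.30 from NGOs to FGOs and of 0.23 and -0.57 from GO1 to GO2. Psmb7 was above Psmb6 in all 4 libraries. Psmb5 (chromosome 14 from 54614120 to 54617995, minus strand) had an RPKM of 64.8 (63.2 to 66.5), 8.17 (7.64 to 8.72), 12.3 (11.8 to 12.8) and 30.1 (29.0 to 31.1). It was the second of the catalytic genes in NGOs and the lowest in the other libraries. Psmb5 fell from NGOs to FGOs by 1.06 on the log2 scale (interval -1.12 to -0.99, which reaches just under 2-fold), while its log2 ratio from GO1 to GO2 was 0.55 (0.44 to 0.67). A processed copy of Psmb5 (Gm3375), named here after the values were seen, shares 21.1 % of the 100-base stretches of the gene and was not analysed here.

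Of the immunoproteasome genes, Psmb8 and Psmb9 were close to absent and Psmb10 was low. Psmb8, Psmb9 and Psmb10 encode the subunits that replace Psmb5, Psmb6 and Psmb7, respectively. Psmb8 had 3, 0, 2 and 0 reads, and its floor, the RPKM that 3 reads would give, was 0.00868 in GO1 and 0.0092 in FGOs. Psmb9 had 9, 5, 4 and 0 reads, and its RPKM was 0.0222 (0.0102 to 0.0422), 0.0108 (0.0035 to 0.0251), 0.00453 (0.00123 to 0.0116) and 0, the last with a floor of 0.00685. Neither gene had enough reads for a ratio between stages. Psmb10 (chromosome 8 from 105935728 to 105938392) was counted at 0.812 (0.670 to 0.975), 0.0869 (0.0475 to 0.146), 0.0489 (0.0274 to 0.0807) and 0.211 (0.144 to 0.297). The NGO value lay above that of FGOs, and the values of GO1, GO2 and FGOs rested on 14, 15 and 32 reads. Psmb10 fell by 1.86 on the log2 scale (interval -2.51 to -1.32) from NGOs to FGOs, and its log2 ratio from GO1 to GO2 was -0.81 (-2.01 to 0.30). The stromal list described above fell in the same direction (summed RPKM 5.51 in NGOs and 0.245 in FGOs), though its gene Pdgfra changed little (0.189 and 0.151). The erythroid list also fell (0.921 and 0). The immune list was mixed, with C1qb higher in FGOs (2.64 and 7.11) and Cd68 (0.626 and 0.326) and Lyz2 (0.136 and 0) lower. The sums of the granulosa (2.85 and 10.4) and endothelial (3.37 and 12.4) lists were higher in FGOs. The part of such cells in the values of Psmb10 was not tested. Together the 3 genes made up 0.446 % (0.372 to 0.531 %) of the summed RPKM of the catalytic subunits of both kinds in NGOs. The share was 0.0799 % (0.0481 to 0.125 %) for GO1, 0.0536 % (0.0332 to 0.082 %) for GO2 and 0.159 % (0.109 to 0.224 %) for FGOs. Most of it was Psmb10, without which the share was 0.0171 % in NGOs and could not be given in FGOs. Psmb7 exceeded Psmb10 by 97.7-fold, 988-fold, 1210.7-fold and 294-fold.

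Psmb11, the beta subunit of the thymoproteasome of cortical thymic epithelium, had an RPKM of 0.241 (0.198 to 0.289), 0.0984 (0.0737 to 0.129), 0.115 (0.0953 to 0.138) and 0.213 (0.174 to 0.257). The intervals of NGOs and FGOs overlap, as do those of GO1 and GO2. Its log2 ratio was -0.12 (-0.52 to 0.27) in the first pair and 0.19 (-0.29 to 0.69) in the second.

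The base of the regulatory particle holds a ring of 6 ATPases, Psmc1 to Psmc6, that unfold substrates and open the core. Their median RPKM was 41.4, 27.6, 31.0 and 34.5. None differed by 2-fold in either pair, and all 6 stayed within 1.5-fold in both, with log2 ratios from -0.53 (Psmc3) to 0.16 (Psmc1) from NGOs to FGOs and from -0.48 (Psmc2) to 0.26 (Psmc4) from GO1 to GO2. Psmc1 had an RPKM of 45.9, 39.99, 46.2 and 49.3 in NGOs, GO1, GO2 and FGOs. Psmc5 had 55.1, 33.7, 35.7 and 46.1 and Psmc6 had 40.2, 49.4, 44.2 and 32.2, so that Psmc5 was the highest ATPase in NGOs, Psmc6 in GO1 and Psmc1 in GO2 and FGOs. Psmc2 was the lowest in each library, between 6.88 and 10.4 RPKM, but its listed exons, at 5031 bases in all, are the longest of the ring. In reads without division by length, the spread of the ATPase genes was 1.998-fold, 1.65-fold, 2.02-fold and 1.59-fold, compared with 5.71-fold, 5.26-fold, 6.70-fold and 4.76-fold in RPKM.

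Among the base subunits that are not ATPases, Psmd4 is a ubiquitin receptor, and Psmd1 and Psmd2 form the scaffold that docks shuttle factors. Psmd4 had an RPKM of 55.6, 52.0, 55.9 and 53.9 and thus varied by no more than 1.07-fold over the 4 libraries, the smallest range among the 50 genes. Psmd1 had 25.5, 21.6, 19.5 and 20.3. Psmd2 had 38.8, 25.5, 22.9 and 22.6, with a log2 ratio of -0.72 (-0.76 to -0.69) from NGOs to FGOs. A transcribed copy of Psmd2 on chromosome 10 (Gm5422, 31248140 to 31251045, singled out after its values were seen) was listed at 36.5, 13.2, 11.7 and 20.6, shares 7.09 % of its 100-base stretches with the gene and had a log2 ratio of -0.77 in the same pair.

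The lid removes ubiquitin chains before degradation. Its 8 genes within the name rule had a median RPKM of 11.6, 9.32, 7.86 and 10.9. In RPKM they were the most uneven part of the regulatory particle, from Psmd11 (3.28, 3.18, 3.12 and 2.73) to Psmd8 (61.9, 34.5, 37.8 and 54.3). Their spread was 18.9-fold, 10.9-fold, 12.1-fold and 19.9-fold in RPKM, and 7.24-fold, 6.32-fold, 4.96-fold and 6.02-fold in reads without division by length. Psmd14, the deubiquitinase of the lid, had 9.76, 6.64, 6.21 and 7.98. Psmd13 (chromosome 7 from 140881968 to 140898643) was the only lid gene past 2-fold. Its RPKM was 9.01 (8.71 to 9.32), 3.92 (3.73 to 4.11), 3.81 (3.67 to 3.94) and 4.02 (3.83 to 4.22). The NGO value was the highest and the other 3 lay close together, which across protocols does not show equal levels. Psmd13 fell by 1.11 on the log2 scale (interval -1.20 to -1.02) from NGOs to FGOs, and its log2 ratio from GO1 to GO2 was -0.08 (-0.16 to 0.01). With the reads halved, the interval of the first ratio (-1.23 to -0.99) reached just under 2-fold. Psmd13 overlaps Sirt3 on the opposite strand, which had an RPKM of 2.07, 0.698, 1.013 and 2.77, and the strand setting behind the values is not given in the sources used here. The other lid genes, among them Psmd3, Psmd6, Psmd7 and Psmd12, had log2 ratios between -0.24 (Psmd14) and 0.38 (Psmd7) from NGOs to FGOs and between -0.44 (Psmd12) and 0.10 (Psmd8) from GO1 to GO2.

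The median of the regulatory particle was 0.694, 0.915, 0.981 and 0.591 times that of the core. In RPKM these medians were 42.9, 23.6, 23.3 and 38.3 for the core and 29.7, 21.6, 22.9 and 22.6 for the regulatory particle. The core median thus lay higher in the dUTP libraries, but gene by gene 9 of 14 core genes and 13 of 17 genes of the regulatory particle had a larger sum over NGOs and FGOs than over GO1 and GO2. Of the 31 constitutive genes, 19, 7, 1 and 4 had their highest value in NGOs, GO1, GO2 and FGOs, respectively. This order crosses protocols and is not read as one of stages, and such counts were not made over all genes. The ratio of the sums, dUTP over ScriptSeq, had a median log2 of 0.34 for the 31 genes, beside 0.21 for 12207 genes. It was at least 2-fold for Psmb3, Psmb4, Psmb5 and Psmd3, and for none in the other direction. Of the 12207 genes, 2297 were at least 2-fold higher and 522 at least 2-fold lower in the dUTP libraries. The share of G and C in the transcript went along with the ratio. Across the 31 genes Spearman's rho was 0.67, across the 48 proteasome genes with at least 80 reads over the libraries it was 0.48, and across the 12207 genes of that depth with a known transcript it was 0.50. The genes share the same 4 libraries and are not independent replicates, and whether base composition or stage gave the ratio was not tested. Psmb5, with 56.6 % of G and C, had a ratio of 4.64, while Psmc6, with 37.0 %, had a ratio of 0.773. Single genes lay off the trend, since Psma7 had the highest share of G and C (57.4 %) with a ratio of 1.55, and Psma4 the lowest ratio (0.653) with 45.0 %.

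**Figure D3:**
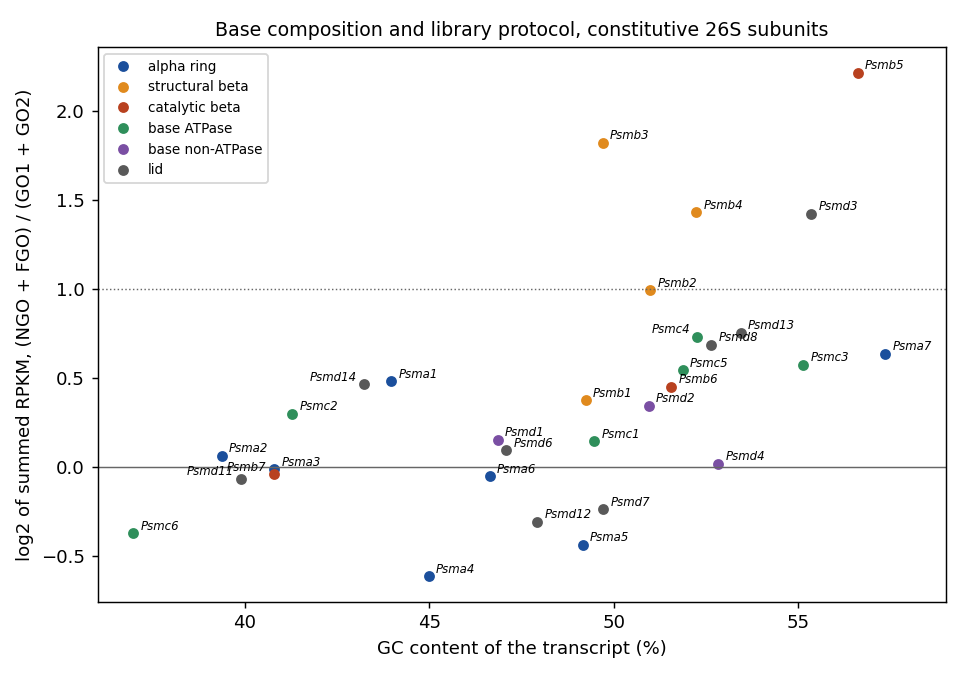
Log2 ratio of the summed RPKM of the dUTP libraries (NGO and FGO) to that of the ScriptSeq libraries (GO1 and GO2) against the GC content of the transcript, with 1 point per constitutive 26S gene, coloured by role. The dotted line marks a ratio of 2. Psmb3, Psmb4, Psmb5 and Psmd3 lie above it.

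Assembly of the proteasome needs chaperones that leave the finished particle. Those of the base are Psmd5, Psmd9 and Psmd10. Psmd5 had an RPKM of 19.5, 13.5, 16.2 and 27.4, with log2 ratios of 0.54 (0.50 to 0.58) and 0.23 (0.18 to 0.27) in the respective pairs, which are below 2-fold. Psmd9 had 6.72, 4.43, 4.42 and 7.10 and Psmd10 had 20.4, 20.0, 19.6 and 18.7. The core is assembled with the help of the pairs Psmg1 and Psmg2, which guide the alpha ring, and Psmg3 and Psmg4. Psmg1 and Psmg2 went in opposite directions from NGOs to FGOs. Psmg1 had an RPKM of 11.1, 7.70, 8.01 and 16.4. Psmg2 had 5.47 (5.06 to 5.91), 2.99 (2.70 to 3.29), 1.60 (1.45 to 1.77) and 1.24 (1.05 to 1.45), from 641, 401, 410 and 157 reads. Psmg2 fell by 2.08 on the log2 scale (interval -2.35 to -1.84) from NGOs to FGOs and its log2 ratio from GO1 to GO2 was -0.93 (-1.13 to -0.73), whereas for its partner Psmg1 the ratios were 0.62 (0.53 to 0.71) and 0.02 (-0.07 to 0.12). Psmg3 had 9.44, 3.53, 4.84 and 9.26 and Psmg4 had 20.2, 25.9, 23.7 and 16.9, neither past 2-fold in a pair.

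Activators cap the core in place of the regulatory particle. Psme1 and Psme2 encode the alpha and beta subunits of PA28, the cytoplasmic activator induced by interferon, Psme3 its nuclear relative PA28 gamma, and Psme4 the activator PA200. Psme1 had an RPKM of 0.205 (0.152 to 0.270), 0.0536 (0.0300 to 0.0883), 0.0638 (0.0442 to 0.0891) and 0.0870 (0.0552 to 0.131). The intervals of GO1 and GO2 overlap, and those of NGOs and FGOs do not. From NGOs to FGOs Psme1 fell by 1.15 on the log2 scale, but with 50 and 23 reads the interval (-1.96 to -0.44) takes in changes of less than 2-fold. With 0.1 added to each RPKM in place of the prior, Psme1 no longer passed 2-fold. As for Psmb10, the sums of the stromal and erythroid lists moved the same way and those of the granulosa, immune and endothelial lists the other way. The part of such cells in the values of Psme1 was not tested. Psme2 was listed at 0.677 (0.566 to 0.802), 0.720 (0.613 to 0.840), 0.613 (0.541 to 0.692) and 0.564 (0.467 to 0.675), and the intervals overlap within each protocol.

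The processed copy Psme2b-ps (chromosome 11 from 48945354 to 48946190) was listed far above Psme2 itself. Its RPKM was 12.1 (11.4 to 12.8), 4.52 (4.13 to 4.95), 3.52 (3.27 to 3.79) and 7.11 (6.60 to 7.65), which is 17.9, 6.28, 5.74 and 12.6 times that of Psme2. The sequences of the gene and its copy are identical at 789 of 794 aligned bases (99.4 %), and 52.0 % of the 100-base stretches of the copy occur in Psme2 transcripts, so that a large part of the reads cannot be told apart. The level of Psme2 is therefore uncertain. The copy also overlaps other listed genes on the same strand. Its log2 ratio was -0.71 (-0.85 to -0.58) from NGOs to FGOs and -0.39 (-0.56 to -0.23) from GO1 to GO2, and with the reads of both loci added the ratios were -0.65 and -0.36.

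The activators not tied to interferon were expressed at the level of the regulatory particle. Psme3 had an RPKM of 38.3 (37.6 to 39.0), 33.3 (32.7 to 33.9), 30.03 (29.6 to 30.4) and 28.3 (27.7 to 28.8). Psme4 (chromosome 11 from 30771726 to 30880361) had 15.5 (15.3 to 15.8), 25.3 (25.04 to 25.6), 26.3 (26.1 to 26.5) and 23.0 (22.7 to 23.3). The NGO value was thus above that of FGOs for Psme3 and below it for Psme4. Within the libraries, Psme3 exceeded Psme4 by 2.47-fold, 1.31-fold, 1.14-fold and 1.23-fold. The log2 ratio from NGOs to FGOs was -0.39 (-0.42 to -0.35) for Psme3 and 0.62 (0.59 to 0.65) for Psme4, both under 2-fold. Psme3 exceeded Psme1 by 187-fold, 622-fold, 471-fold and 325-fold.

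Psmf1 encodes PI31, described as an inhibitor of the core and as an adaptor for its transport. Its RPKM was 6.57 (6.39 to 6.77), 5.42 (5.26 to 5.59), 8.52 (8.37 to 8.67) and 12.05 (11.8 to 12.3). The value was higher in FGOs than in NGOs and higher in GO2 than in GO1. The log2 ratio was 0.93 (0.88 to 0.98) from NGOs to FGOs and 0.62 (0.57 to 0.67) from GO1 to GO2, the largest of the 48 ratios in the upward direction in both pairs, and under 2-fold in each. Psmc3ip, which encodes the meiotic recombination factor HOP2 and no proteasome subunit, had 13.5, 20.1, 14.3 and 11.5 and did not pass 2-fold.

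Genes that work with the proteasome were set beside these values. Of 10 listed associated factors none passed 2-fold in either pair, and Paaf1 was not analysed here. Pomp, the maturation factor of the core, had an RPKM of 46.6, 40.2, 32.9 and 27.6, and Akirin2, which brings proteasomes into the nucleus, had 88.5, 123, 102 and 90.6. Of 4 genes for the transcription factor pathway that sets proteasome gene expression, 1 rose by 2-fold from NGOs to FGOs, beside 17.7 % of all genes, and none passed from GO1 to GO2. This was Nfe2l2, with 1.21, 1.89, 2.44 and 3.31 and a log2 ratio of 1.51, while Nfe2l1, the factor known to induce proteasome genes when proteasomes are inhibited, stayed at 25.5, 21.8, 22.0 and 25.8. Rad23b, which encodes a shuttle factor for substrates, had 53.1, 56.8, 59.7 and 46.1. The polyubiquitin gene Ubb had 687, 434, 345 and 698. Of the peptide transporter genes of antigen processing, Tap2 had an RPKM of 0.373, 0.763, 0.771 and 1.04 and was higher by more than 2-fold in FGOs than in NGOs, and Tap1 was lower. Tap1, which shares a promoter region with Psmb9, had 25, 7, 13 and 1 reads, with a log2 ratio of -3.74 (-10.06 to -2.09) from NGOs to FGOs.

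Promoter sequences were searched for letters of elements known to act on proteasome genes, since most subunit genes stayed within 1.5-fold in each pair. RefSeq start regions (250 bases before to 50 after the start, GRCm38.p6) were found for 42 of the 50 genes, without Psma8, Psmb1, Psmb2, Psmb7, Psmc3, Psmd3, Psmd7 and Psmg2. TGACNNNGC, the core of the antioxidant response element through which Nfe2l1 and Nfe2l2 act, occurred on either strand for 6 genes (Psmb5, Psmb6, Psmc6, Psmd9, Psmd12 and Psme4), which is 14.3 % of the 42, beside 13.99 % of all 27025 genes with such regions. The core of the interferon-stimulated response element occurred for 5 genes (Psmb3, Psmd4, Psmd9, Psme1 and Psmg4), or 11.9 %, beside 3.99 % of all genes. The matches of Psme1 and Psmg4 lay after the start. Psmb8, Psmb9, Psmb10 and Psme2 had no match, and the difference in shares was not tested. CCAAT occurred for 15 genes, or 35.7 %, beside 41.1 % of all genes. A match describes letters and not a bound site. The stretches around TGACNNNGC are shown for the 5 genes in which it lies wholly before the start, on the strand of the gene and with the match (or its reverse complement, for Psmc6 and Psmd12) in capitals. They lie at chr14:54618014-54618062 (minus strand) for Psmb5, chr11:70525328-70525356 (plus) for Psmb6, chr14:45329577-45329625 (plus) for Psmc6, chr5:123228139-123228187 (plus) for Psmd9 and chr11:107479278-107479309 (plus) for Psmd12, upstream of the listed gene in each case.
Psmb5: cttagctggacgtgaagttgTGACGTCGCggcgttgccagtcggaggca
Psmb6: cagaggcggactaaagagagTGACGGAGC
Psmc6: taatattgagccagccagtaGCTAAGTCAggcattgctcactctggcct
Psmd9: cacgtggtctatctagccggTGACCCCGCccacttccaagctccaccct
Psmd12: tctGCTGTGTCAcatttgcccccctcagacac
The genes with these letters had log2 ratios of both signs in each pair, and they were not tested as a group. From NGOs to FGOs the log2 ratio was -1.06 for Psmb5, -0.07 for Psmb6, -0.27 for Psmc6, 0.13 for Psmd9, 0.07 for Psmd12 and 0.62 for Psme4. From GO1 to GO2 it was 0.55, 0.23, -0.19, -0.04, -0.44 and 0.02 for these genes in the same order.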

How the data were processed

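The values analysed are RPKM deposited by the authors. Their file is described as read counts but holds RPKM, and analyses had been planned for reads. The authors trimmed reads with Trim Galore 0.2.8 and mapped them to GRCm38 with TopHat2 2.0.9, keeping 1 placement per read. The counting program, its annotation, its strand setting and how often a read pair was counted are not given in the sources used here.

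Reads were recovered by finding, for each gene, the exon length that turns its RPKM into whole numbers. For single-exon genes the values were whole within 0.05 in 99.58 % (NGO), 99.66 % (GO1), 99.72 % (GO2) and 99.45 % (FGO). Lengths came from GENCODE M21 for 11260 genes, were the smallest that fitted for 9762 and were rounded for 1, and 4564 genes were at 0 throughout. Where the smallest length was used, reads may be understated.

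Pairs were scaled by a weighted trimmed mean of log ratios (trims 30 % and 5 %). Log2 ratios had a prior of 1 read and needed at least 20 reads in the pair. A change was called at 2-fold, the floor was 3 reads, and intervals are exact at 95 %. Alternatives for cut-offs, scaling, length and members were run, and, chosen after seeing the data, halved reads and the alpha ring without Psma5. Promoters came from the RefSeq table for GRCm38.p6. The 50 genes were taken by symbol, and the genes and lists set beside them were chosen with earlier results of these data known. Python 3.11.15, numpy 2.4.6, pandas 2.3.3, scipy 1.17.1, matplotlib 3.10.9 and Biopython 1.88 were used.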

Additional observations from a re-analysis of the deposited data

How the results depend on the processing

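Of the values recomputed with other choices, 18 were equal to those reported and 40 differed within the limit set beforehand (1.5-fold for counts and spreads, the 95 % interval for other values, taken over genes for medians). Series of 4 values are in the order NGOs, GO1, GO2 and FGOs. Within the limit, proteasome genes past 2-fold from NGOs to FGOs were 8 with at least 3 reads (39.5 % of all genes), 5 with at least 100 reads (29.7 %) and 5 with 0.1 added to RPKM (25.5 %), the latter counts without Psme1, in place of 6, those at an RPKM of at least 1 were 43 in each library, the GO1 to GO2 median turned from -0.05 to 0.03 with equal RPKM sums, and the beta ring spread in GO2 was 6.72-fold in reads. Beyond the limit, 13 genes (3 higher, 10 lower) passed from NGOs to FGOs at 1.5-fold, beside 54.2 % of all genes, and 2 at 4-fold, beside 14.1 %. From GO1 to GO2, 2 passed with at least 3 reads (Psmb9, with 5 and 4 reads, beside Psma8; 16.6 % of all genes), 0 with at least 100 reads (5.81 %) and 4 at 1.5-fold (23.7 %), in place of 1. In another unit, ppm of the summed RPKM, the core median was 228, 136, 138 and 204 and that of the regulatory particle 158, 124, 135 and 121, which leaves their ratio within a library as it was.

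Without Psmb10, the immunoproteasome share was 0.0171 % in NGOs, 0.00882 % in GO1 and 0.00718 % in GO2, and could not be given in FGOs, which had no reads of Psmb8 or Psmb9. Without Psma5, an alternative chosen after seeing the data, the spread of the alpha ring was 8.55-fold, 5.43-fold, 7.57-fold and 8.53-fold. In reads without gene length, the spread of the beta ring was 1.70-fold in NGOs, that of the base ATPases 1.998-fold, 1.65-fold, 2.02-fold and 1.59-fold, and that of the lid 7.24-fold, 6.32-fold, 4.96-fold and 6.02-fold in NGOs, GO1, GO2 and FGOs. In RPKM the spread of the beta ring was 3.12-fold, 15.3-fold, 9.54-fold and 3.82-fold, and that of the lid 18.9-fold, 10.9-fold, 12.1-fold and 19.9-fold.

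No paired analysis was possible because each stage has 1 library. Levels of different genes depend on the merged exon length behind RPKM. Reads in stretches shared with near-identical copies cannot be told apart, and the strand setting for genes that overlap on opposite strands is not given in the sources used here.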
